A study of Homo sapiens with 27 samples.

Results

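Most of the genes described here are known to write or remove methyl groups on histones. The list holds 44 genes, 28 of them methyltransferases or SET-domain proteins and 16 demethylases, out of 20268 genes in the 4 tables. They were chosen by name and not by any measured value, though with earlier results of these data known. All 44 were listed in every table. Methyltransferases add methyl groups to lysines of histones H3 and H4, and demethylases take them off. Methylation of H3K4, H3K36 and H3K79 accompanies transcribed genes, whereas methylation of H3K9, H3K27 and H4K20 is known mainly from silenced or compacted chromatin. In prostate cancer this family is best known for EZH2, the catalytic subunit of Polycomb repressive complex 2, and for KDM1A (LSD1), a demethylase that works with the androgen receptor.

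Their transcript ends were measured in 27 PAC-seq (Poly(A)-ClickSeq) libraries, which capture where the body of an RNA meets its poly(A) tail, from established human lines of prostate cancer. The hormone-sensitive LNCaP, its derivative LNCaP95, which grows without androgen, and the castration-resistant 22Rv1 were used. Cells of each line were transduced with lentivirus carrying a control shRNA (CTRL sh) or 1 of 2 shRNAs that target CPSF1, named CPSF1 sh1 and CPSF1 sh2. They were selected 2 times with puromycin (2 µg/mL for LNCaP and 22Rv1, 1 µg/mL for LNCaP95) and grown for 72 h after seeding in RPMI 1640 with serum, which was phenol red-free for LNCaP95. Each of the 9 groups had 3 libraries. CPSF1 is a subunit of the complex that recognizes the polyadenylation signal. All groups thus carry an integrated lentivirus and have passed puromycin selection. The methods name the libraries of a group biological replicates but do not say whether they came from separate transductions or cultures, so p-values measure the spread between these libraries only.

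Reads of a gene were counted in 4 regions, namely the 3′ UTR (extended by 300 bases), the introns, the coding sequence of its exons (CDS) and a 10 kb stretch that follows the gene end. Totals over the 4 regions ran from 3452413 to 12425417 reads per library, with 4217 to 17844 reads of the 44 genes in the 3′ UTR table and 408 to 2205 in the 10 kb table. In 22Rv1 the controls had 3452413, 5762032 and 8470629 reads and the knockdown libraries 6436202 to 12425417. Raw read numbers of controls and knockdown are therefore not on 1 scale in that line. Values are given as read counts normalized to library size with edgeR (CPM) within the table they come from, so a 10 kb value is relative to all other 10 kb regions. Over all genes the 10 kb regions held 4.88% ± 0.09 (SD, n = 3) of the reads in LNCaP controls and 6.28% ± 0.67 (SD, n = 6) after knockdown, with 3.62% ± 0.13 and 6.01% ± 0.72 in LNCaP95 and 4.66% ± 0.25 and 5.87% ± 0.34 in 22Rv1. A gene is called below where the adjusted p of edgeR's quasi-likelihood test was under 0.05 over all genes of a table. Where a call did not hold in fits that left out 1 library in turn, the fits or their number are given for most calls. The closing lists of differences between lines give totals instead. CPSF1 itself fell in its 3′ UTR in all 3 lines, from 137 to 184 CPM in controls to 53.0 to 98.4 CPM in LNCaP (log2 fold change -1.19 ± 0.17 (SE), adjusted p = 8.31e-05), from 66.2 to 109.8 to 34.1 to 60.4 CPM in LNCaP95 (-1.05 ± 0.18 (SE), adjusted p = 0.000301) and from 134 to 202 to 85.0 to 114 CPM in 22Rv1 (-0.73 ± 0.14 (SE), adjusted p = 0.0164). All 9 luminal prostate markers were above 2 CPM on average in every group, whereas the basal markers TP63 and KRT5 and the leukocyte marker PTPRC were at or near 0 in the controls. Of the other markers on these lists, KRT14 reached 2.67 CPM in LNCaP95 controls, CD68 lay between 2.09 and 6.51 CPM in the controls of all lines, and COL1A1 between 5.18 and 8.75 CPM in 22Rv1 and 35.2 and 41.0 CPM in LNCaP95. The summed luminal markers lay at 6836 to 7045 CPM in LNCaP controls and 4725 to 5393 CPM after knockdown, at 9252 to 10183 and 5636 to 6934 CPM in LNCaP95, and at 3179 to 3677 and 3360 to 4238 CPM in 22Rv1. The 3 basal markers summed to 1.02 to 1.97 CPM in LNCaP controls and 2.05 to 6.63 CPM after knockdown, to 0.558 to 2.67 and 2.78 to 5.43 CPM in LNCaP95, and stayed under 0.5 CPM in 22Rv1. The leukocyte list, of which 1 of 3 genes (CD68) exceeded 2 CPM, summed to 3.99 to 6.77 CPM in LNCaP95 controls and 11.0 to 25.1 CPM after knockdown. The part of these shifts in the results below was not tested. In bulk libraries, fewer cells with a transcript and less of it per cell cannot be told apart.

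Over the 9 control libraries pooled, 36.6% of the reads of the 44 genes lay in 3′ UTRs, 33.9% in introns, 27.6% in coding exons and 1.91% in the 10 kb regions, beside 56.2%, 24.8%, 14.7% and 4.29% over all genes. Counted gene by gene among genes with at least 100 control reads, the median 3′ UTR share was 44.5% for these genes and 53.0% over 13908 genes, the median intron share 27.2% and 22.2%, the median CDS share 8.12% and 0.287% and the median 10 kb share 0.910% and 1.94%. The pooled figures are weighted by the abundant genes, and no difference in shares was tested. Their introns, coding exons and 3′ UTRs were also longer, with a median summed intron length of 68141 bases against 21807, a median coding length of 4170 bases against 1324 and a median 3′ UTR of 5245 bases against 2151. The part of length in the shares was not tested.

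Individual members spread over the whole range of region use. KDM6B, a demethylase of H3K27, had a median of 99.1% of its reads in the 3′ UTR over the 27 libraries, and SUV420H2, which writes H4K20 di- and trimethylation, had 98.1%. KDM5A, which removes H3K4 methylation, and KMT2B, which writes it, lay at the other side with 70.7% and 68.7% of their reads in coding exons. KDM4C, a demethylase of H3K9 and H3K36, had 98.1% of its reads in introns. Downstream reads took a median of 57.4% of the reads of SUV39H2, a writer of H3K9 trimethylation, over the same 27 libraries. The median was 41.1% for PHF8, a demethylase of H3K9 and H4K20. It was 32.2% for KMT2D, an H3K4 methyltransferase that marks enhancers. These medians include knockdown libraries, whose PHF8 shares all exceeded those of the controls for LNCaP95 and 22Rv1. Among the controls alone the share ranged from 11.2% to 51.1% for PHF8 and from 20.7% to 39.4% for KMT2D. PRKAG1 lies in the KMT2D region on the same strand, so reads there cannot be assigned to KMT2D alone.

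**Figure D1:**
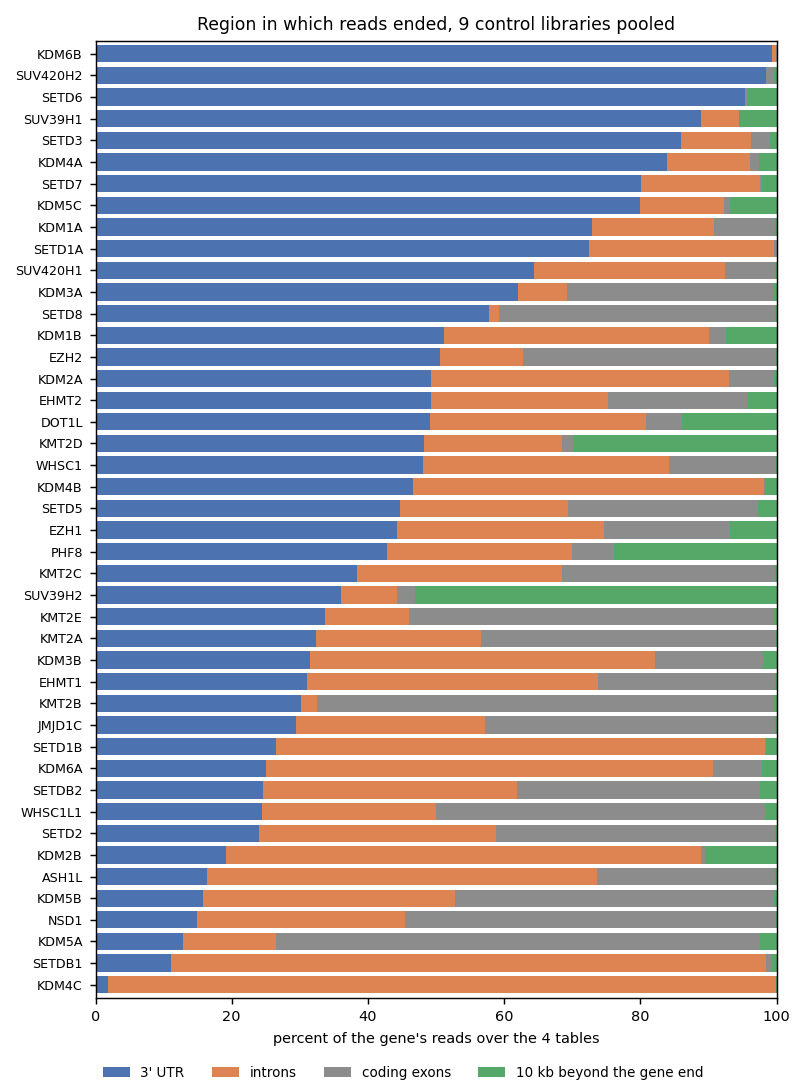
Percentage of each gene's reads in the 3′ UTR, introns, coding exons and the 10 kb region, from the 9 CTRL sh libraries pooled, with 1 stacked bar per gene ordered by 3′ UTR share. The bars run from almost wholly 3′ UTR (KDM6B and SUV420H2) to almost wholly intron (KDM4C), and SUV39H2, PHF8 and KMT2D have the widest 10 kb segments.

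The 4 members with the highest intron share of their intron plus 3′ UTR reads were KDM4C, SETDB1, KDM2B and ASH1L. KDM4C stood at a median of 98.3% and varied only from 97.1% to 99.2% over the 27 libraries. SETDB1, a writer of H3K9 trimethylation at repeats, had a median of 87.3% with a range of 65.4% to 95.2%. KDM2B, an H3K36 demethylase that recruits a Polycomb complex to CpG islands, had 78.6% (62.8% to 90.3%), and ASH1L, an H3K36 methyltransferase, had 76.2% (67.2% to 87.1%). In LNCaP controls the share of KDM2B was 81.1, 83.2 and 81.2%, that of SETDB1 was 87.3, 88.0 and 87.04% and that of ASH1L was 77.9, 80.4 and 78.1%. Another gene on the same strand ends inside an intron of 15 of the 44 members, among them a pseudogene and long non-coding RNAs in KDM4C, and reads from such genes cannot be told apart from reads of the host in these tables.

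To compare the lines before knockdown, 3′ UTR counts of the 9 control libraries were tested between lines. All 44 genes were tested in each comparison. LNCaP95 had 10 higher and 7 lower genes than LNCaP, beside 19.1% higher and 20.2% lower of all genes (39.3% in either direction). The 17 differences of LNCaP95 fell to 11 without CTRL sh replicate 3 of LNCaP or CTRL sh replicate 1 of LNCaP95. 22Rv1 had 10 higher and 5 lower genes than LNCaP (23.9% and 23.2% of all genes, 47.2%) and 10 higher and 10 lower than LNCaP95 (28.1% and 26.5% of all genes, 54.6%). The lines also differed in medium and puromycin dose, which cannot be told apart from the line.

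KDM6A (UTX), a demethylase of H3K27 on the X chromosome, gave the widest spread between lines. The spread was ranked on line means of log2 CPM after adding 1 CPM, which narrows that of weakly expressed genes such as SUV39H1. Its 3′ UTR had 49.5, 85.1 and 59.5 CPM in the 3 LNCaP controls, 7.26, 12.6 and 11.1 CPM in LNCaP95 and 2.59, 12.4 and 10.9 CPM in 22Rv1. Every LNCaP control lay above all 6 others, with a log2 difference of -2.66 ± 0.31 (SE), adjusted p = 4.23e-06 for LNCaP95 over LNCaP and of -2.75 ± 0.33 (SE), adjusted p = 3.28e-06 for 22Rv1 over LNCaP (edgeR). The intron counts of KDM6A had the same order, 254, 324 and 305 CPM in LNCaP, 129, 136 and 122 CPM in LNCaP95 and 59.5, 47.4 and 48.0 CPM in 22Rv1. Its intron to 3′ UTR ratio was higher in LNCaP95 than in LNCaP (log2 difference 1.45 ± 0.34 (SE), adjusted p = 0.0127, lost in 2 of 9 fits) and lower in 22Rv1 than in LNCaP95 (-1.20 ± 0.40 (SE), adjusted p = 0.0420, lost in 8 of 9 fits).

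KDM5B (JARID1B), which removes H3K4 di- and trimethylation, had 39.1, 34.9 and 27.8 CPM in LNCaP controls, 50.4, 53.1 and 44.1 CPM in LNCaP95 and 14.9, 12.1 and 16.0 CPM in 22Rv1. The 3 lines did not overlap, and the order LNCaP95, LNCaP, 22Rv1 was called at both steps, by 0.53 ± 0.19 (SE), adjusted p = 0.0330 (lost in 4 of 9 fits) for LNCaP95 over LNCaP and -1.23 ± 0.21 (SE), adjusted p = 0.000151 for 22Rv1 over LNCaP on the log2 scale (edgeR). EZH2 had the opposite order of extremes. Its 3′ UTR had 159, 169.6 and 149 CPM in 22Rv1, 67.1, 56.6 and 88.6 CPM in LNCaP and 48.6, 42.4 and 59.7 CPM in LNCaP95. The 22Rv1 libraries lay above all others (1.18 ± 0.19 (SE), adjusted p = 5.9e-05 over LNCaP and 1.67 ± 0.19 (SE), adjusted p = 1.06e-06 over LNCaP95), while LNCaP95 and LNCaP overlapped and differed by -0.50 ± 0.19 (SE), adjusted p = 0.0438 (lost in 5 of 9 fits).

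SETD1B, the catalytic subunit of a SET1 complex that writes H3K4 methylation, had the fourth widest spread. It had 18.1, 19.9 and 19.4 CPM in 22Rv1 controls, above 7.16, 6.36 and 8.43 CPM in LNCaP and 4.28, 8.82 and 4.10 CPM in LNCaP95. The differences of 22Rv1 were called (log2 1.40 ± 0.32 (SE), adjusted p = 0.00180 over LNCaP and 1.76 ± 0.32 (SE), adjusted p = 0.000197 over LNCaP95), and the LNCaP and LNCaP95 values overlapped. KDM1A had 51.6, 59.4 and 52.9 CPM in LNCaP controls, 69.4, 57.5 and 75.9 CPM in LNCaP95 and 50.5, 44.1 and 40.4 CPM in 22Rv1. The 1 difference called was that of 22Rv1 below LNCaP95 (-0.59 ± 0.17 (SE), adjusted p = 0.00779).

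**Figure D2:**
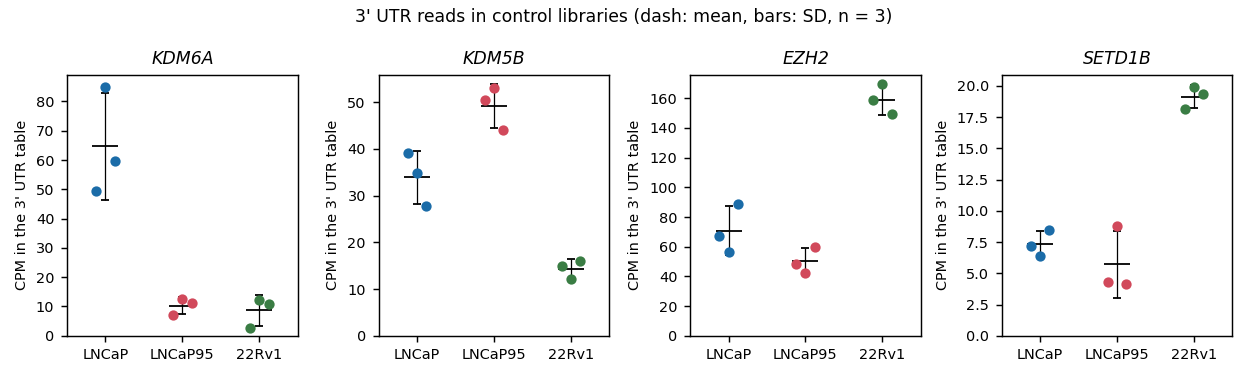
3′ UTR level (CPM, linear axis from 0) of KDM6A, KDM5B, EZH2 and SETD1B in the CTRL sh libraries of LNCaP, LNCaP95 and 22Rv1, with 1 point per library, a dash for the mean and bars for the SD (n = 3). KDM6A was high in LNCaP alone, KDM5B stepped down from LNCaP95 to 22Rv1, and EZH2 and SETD1B were highest in 22Rv1.

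By role, the calls between control lines are given as counts, and no role group was tested against another. Of the 7 demethylases of H3K9, 3 were higher in LNCaP95 than in LNCaP (19.1% of all genes), and 3 were lower in 22Rv1 than in LNCaP95 (26.5% of all genes), namely KDM3A (-1.40), JMJD1C (-1.14) and KDM4A (-1.07, log2). Of the 8 genes grouped as writers of H3K4, 4 were higher in 22Rv1 than in LNCaP95 and 1, KMT2E, was lower (28.1% and 26.5% of all genes). The largest positive differences were in SETD1B and KMT2B (0.80, lost in 1 of 9 fits). Of the 4 writers of H4K20 and H3K79, 3 were higher in 22Rv1 than in LNCaP (23.9% of all genes), led by SUV420H1 (1.27), which writes H4K20 di- and trimethylation. SUV39H1 was 1 of 6 H3K9 writers and the only one lower in 22Rv1 than in LNCaP95 (-1.95), while none of the 6 was higher there.

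Intron use relative to the 3′ UTR differed between control lines in few members. Of 41 tested, 1 was higher and 1 lower in LNCaP95 than in LNCaP (4.55% and 2.68% of all genes, and 0 to 4 calls without a library), 0 and 2 in 22Rv1 against LNCaP (3.83% and 4.66%, and 1 call when any 1 control of either line was left out) and 3 and 5 in 22Rv1 against LNCaP95 (7.75% and 10.7%, and 2 to 7 calls without a library). SUV420H1 had the lowest called ratio against LNCaP in both other lines, at -0.95 ± 0.25 (SE), adjusted p = 0.0236 in LNCaP95 (lost in 5 of 9 fits) and -1.39 ± 0.26 (SE), adjusted p = 0.00119 in 22Rv1 (log2, edgeR). EZH1, the other catalytic subunit of Polycomb repressive complex 2, had the highest ratio in 22Rv1 against LNCaP95 (1.18 ± 0.33 (SE), adjusted p = 0.0140, lost in 2 of 9 fits). For the ratio of the 10 kb region to the 3′ UTR, 0 of 40 differed between LNCaP95 and LNCaP (6 at an unadjusted p under 0.05, with 1.69% of all genes higher and 1.25% lower). EHMT2, an H3K9 methyltransferase, was the only member lower in 22Rv1 than in LNCaP (-2.60, 3.01% of all genes lower, lost in 7 of 9 fits and not called with the replicate number as a block). EZH1 (2.45 ± 0.61 (SE), adjusted p = 0.00469) and SETD3 (3.60 ± 0.99 (SE), adjusted p = 0.0106, on 3 reads in the LNCaP95 controls), an actin histidine methyltransferase, were higher in 22Rv1 than in LNCaP95 (6.69% of all genes). These 2 calls did not both hold, as only 1 member was called there without CTRL sh replicate 3 of 22Rv1.

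CPSF1 knockdown was followed by a fall of several of these genes in the 3′ UTR of LNCaP and LNCaP95, and by no call in 22Rv1. In LNCaP 1 of 44 genes was higher and 8 were lower, beside 8.24% and 10.1% of all 11021 genes tested (18.3% in either direction). In LNCaP95 2 were higher and 13 lower, beside 15.2% and 15.2% of 11277 genes (30.5%). In 22Rv1 0 of 43 passed in either direction, beside 0.678% and 0.791% of 11501 genes (1.47%), with 4 at an unadjusted p under 0.05 and 1 called by DESeq2. The members had a median log2 fold change of -0.12 (LNCaP), -0.12 (LNCaP95) and 0.017 (22Rv1), beside 0.015, 0.014 and -0.0083 over all genes.

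The largest mean fall over the lines belonged to SUV420H2. In LNCaP its 3′ UTR had 69.5, 45.4 and 48.8 CPM in the CTRL sh libraries, 25.6, 21.2 and 27.1 CPM with CPSF1 sh1 and 23.3, 36.5 and 30.5 CPM with CPSF1 sh2. In LNCaP95 it had 87.8, 47.5 and 91.5 CPM in the CTRL sh libraries, 28.5, 21.5 and 45.0 CPM with CPSF1 sh1 and 33.3, 20.4 and 22.8 CPM with CPSF1 sh2. In both lines all 6 knockdown libraries lay below all 3 controls (log2 fold change -0.99 ± 0.18 (SE), adjusted p = 0.000799 in LNCaP and -1.40 ± 0.23 (SE), adjusted p = 0.000165 in LNCaP95, edgeR). In 22Rv1 the groups overlapped, with 41.0 to 73.1 CPM in controls and 35.2 to 54.1 CPM after knockdown (-0.36 ± 0.19 (SE), adjusted p = 0.403).

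KDM3A, a demethylase of H3K9 mono- and dimethylation and a known coactivator of the androgen receptor, had 39.96, 33.8 and 32.9 CPM in the CTRL sh libraries, 17.7, 23.5 and 17.6 CPM with CPSF1 sh1 and 18.8, 11.1 and 14.3 CPM with CPSF1 sh2 in LNCaP. In LNCaP95 it had 73.5, 67.4 and 61.1 CPM in the CTRL sh libraries, 48.8, 28.8 and 35.1 CPM with CPSF1 sh1 and 34.0, 25.6 and 22.5 CPM with CPSF1 sh2. Controls and knockdown did not overlap in either line, with a log2 fold change of -1.01 ± 0.19 (SE), adjusted p = 0.00122 in LNCaP and -1.05 ± 0.19 (SE), adjusted p = 0.000416 in LNCaP95 (edgeR). In 22Rv1 the controls had 20.7 to 29.9 CPM and the knockdown libraries 16.0 to 25.7 CPM, and no change was called (-0.31 ± 0.19 (SE), adjusted p = 0.504).

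KDM6B (JMJD3) had 202, 157 and 173 CPM in the CTRL sh libraries, 93.9, 87.8 and 123 CPM with CPSF1 sh1 and 81.7, 138 and 119 CPM with CPSF1 sh2 in LNCaP and 240.0, 175 and 217 CPM in the CTRL sh libraries, 105, 76.2 and 141 CPM with CPSF1 sh1 and 134, 121 and 92.8 CPM with CPSF1 sh2 in LNCaP95. All knockdown libraries of these lines lay below their controls (log2 fold change -0.71 ± 0.16 (SE), adjusted p = 0.00421 in LNCaP and -0.91 ± 0.17 (SE), adjusted p = 0.000600 in LNCaP95, edgeR). 22Rv1 had 147 to 184 CPM in controls and 127 to 192 CPM after knockdown, which overlap (-0.093 ± 0.14 (SE), adjusted p = 0.830). JMJD1C, a relative of KDM3A, had 171, 136 and 162 CPM in the CTRL sh libraries, 81.5, 91.6 and 107 CPM with CPSF1 sh1 and 85.5, 83.5 and 82.8 CPM with CPSF1 sh2 in LNCaP, with no overlap (log2 fold change -0.80 ± 0.13 (SE), adjusted p = 0.000313). In LNCaP95 it had 259, 240.5 and 234 CPM in the CTRL sh libraries, 119.5, 258 and 144 CPM with CPSF1 sh1 and 171, 118 and 122 CPM with CPSF1 sh2. Here the second CPSF1 sh1 library lay within the controls while the other 5 lay below them, and the call (log2 fold change -0.65 ± 0.20 (SE), adjusted p = 0.0188) was lost without CTRL sh replicate 1 (adjusted p = 0.0795). In 22Rv1 JMJD1C ran from 91.3 to 131 CPM in controls and from 76.4 to 133 CPM after knockdown (-0.23 ± 0.17 (SE), adjusted p = 0.602).

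SETD8, which writes H4K20 monomethylation, was the only member higher in both LNCaP and LNCaP95, and is given by library because of that, a choice made after its values were seen. It had 94.2, 81.3 and 91.7 CPM in the CTRL sh libraries, 128, 115 and 146 CPM with CPSF1 sh1 and 144, 167 and 139 CPM with CPSF1 sh2 in LNCaP. LNCaP95 showed 103, 98.3 and 95.6 CPM in the CTRL sh libraries, 126, 168.9 and 146 CPM with CPSF1 sh1 and 135, 150.3 and 176 CPM with CPSF1 sh2. In neither line did controls and knockdown overlap (log2 fold change 0.66 ± 0.14 (SE), adjusted p = 0.00254 in LNCaP and 0.61 ± 0.14 (SE), adjusted p = 0.00274 in LNCaP95, edgeR). In 22Rv1 SETD8 had 125 to 172 CPM in controls and 137 to 174 CPM after knockdown (0.0095 ± 0.13 (SE), adjusted p = 0.984).

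**Figure D3:**
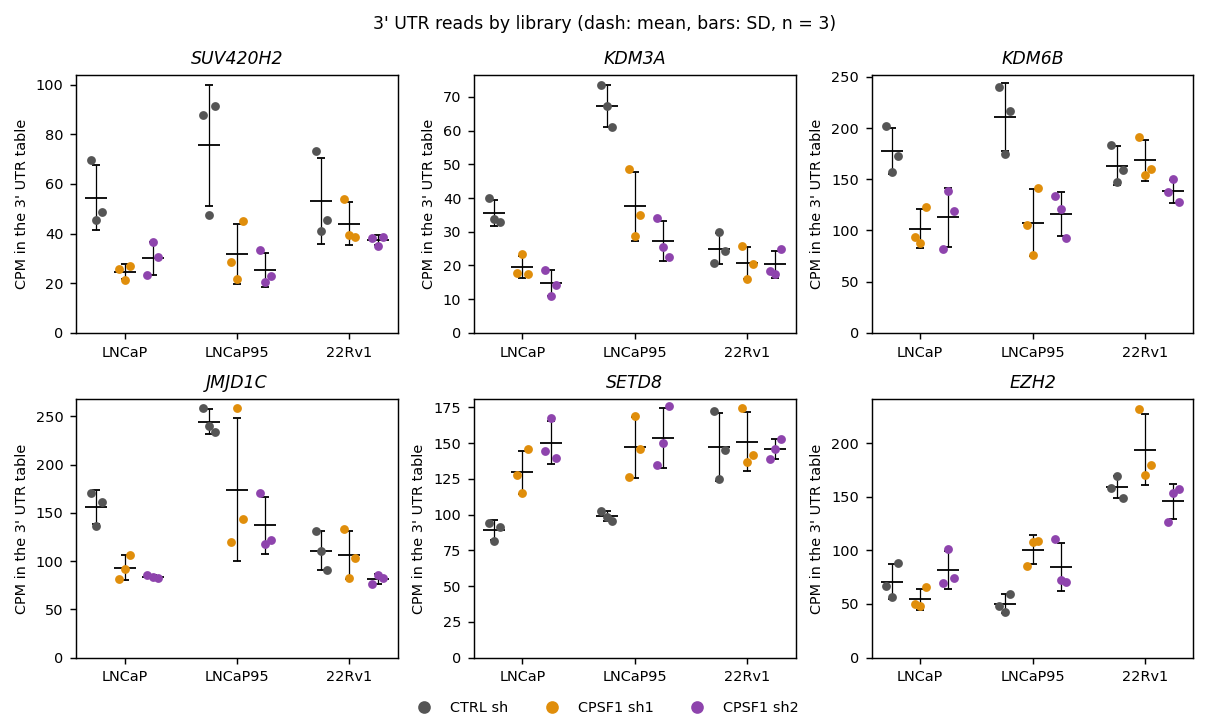
3′ UTR level (CPM, linear axis from 0) of SUV420H2, KDM3A, KDM6B, JMJD1C, SETD8 and EZH2 in each library, grouped by line and shRNA, with a dash for the mean and bars for the SD (n = 3). The knockdown points of SUV420H2, KDM3A and KDM6B lie below the controls in LNCaP and LNCaP95 and among them in 22Rv1, SETD8 lies above the controls in LNCaP and LNCaP95, and EZH2 rises in LNCaP95.

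EZH2 rose in LNCaP95, from 48.6, 42.4 and 59.7 CPM in controls to 70.5 to 111 CPM in the 6 knockdown libraries, with no overlap (log2 fold change 0.88 ± 0.18 (SE), adjusted p = 0.00113). In LNCaP it had 67.1, 56.6 and 88.6 CPM in the CTRL sh libraries, 49.8, 47.8 and 65.5 CPM with CPSF1 sh1 and 69.4, 102 and 74.3 CPM with CPSF1 sh2, and in 22Rv1 159, 169.6 and 149 CPM in the CTRL sh libraries, 231, 171 and 179.9 CPM with CPSF1 sh1 and 126, 154 and 157 CPM with CPSF1 sh2. Both lines overlapped and were not called, and their signs changed when only 1 shRNA was fitted (log2 fold change -0.055 ± 0.20 (SE), adjusted p = 0.881 in LNCaP and 0.086 ± 0.16 (SE), adjusted p = 0.866 in 22Rv1). The change in LNCaP95 exceeded that in LNCaP by 0.95 ± 0.28 (SE), adjusted p = 0.0282 (lost in 6 of 27 fits) on the log2 scale in the test of the line-by-knockdown term. EZH1 went the other way in LNCaP95 (log2 fold change -1.15 ± 0.19 (SE), adjusted p = 0.000184). Coding-exon counts gave the same directions in LNCaP95 for EZH2 (0.96 ± 0.19 (SE), adjusted p = 0.00115) and EZH1 (-1.18 ± 0.25 (SE), adjusted p = 0.00211).

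KDM1A was not called in the 3′ UTR of any line. Its 3′ UTR had 51.6, 59.4 and 52.9 CPM in the CTRL sh libraries, 46.1, 57.1 and 48.4 CPM with CPSF1 sh1 and 53.7, 40.9 and 53.0 CPM with CPSF1 sh2 in LNCaP. The controls and knockdown libraries spanned 57.5 to 75.9 and 51.4 to 84.1 CPM in LNCaP95, and 40.4 to 50.5 and 40.1 to 53.5 CPM in 22Rv1. All 3 lines overlapped, with log2 fold changes of -0.11 ± 0.14 (SE), adjusted p = 0.631 in LNCaP, -0.066 ± 0.16 (SE), adjusted p = 0.787 in LNCaP95 and 0.096 ± 0.14 (SE), adjusted p = 0.830 in 22Rv1 (edgeR).

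Of the 7 erasers of H3K9, 5 fell in the 3′ UTR in LNCaP95 (15.2% of all genes), namely KDM3A, KDM4C (-0.66), JMJD1C, KDM4B (-0.51) and KDM4A (-0.49, log2), and 2 fell in LNCaP (10.1% of all genes). Without CTRL sh replicate 1 of LNCaP95 only KDM3A of these 5 kept its call, and the adjusted p of JMJD1C, KDM4A, KDM4B and KDM4C was 0.0795, 0.117, 0.139 and 0.197. KDM4C was lost in 5 of 9 fits. KDM4B and KDM4A are demethylases of H3K9 trimethylation. Of the 4 writers of H4K20 and H3K79, SUV420H2, SUV420H1 (-0.98) and DOT1L (-0.70), the H3K79 methyltransferase, fell in LNCaP95 and SETD8 rose, as 3 lower and 1 higher call (15.2% of all genes in each direction). KMT2E, an MLL-family protein that binds methylated H3K4, was the only one called of the 8 genes grouped as H3K4 writers. It was lower in LNCaP (-0.59) and LNCaP95 (-1.004). KDM5A fell in LNCaP (-0.71) and LNCaP95 (-0.41, lost in 5 of 9 fits) as the only one of 5 H3K4 erasers. WHSC1 (NSD2), which writes H3K36 dimethylation, fell in LNCaP (-0.56). None of the 6 H3K9 writers and neither of the 2 H3K36 erasers passed in the 3′ UTR of any line. Of the remaining calls, SETD5, a SET-domain protein of debated activity, was lower in LNCaP (-0.41, lost in 2 of 9 fits) and SETD3 in LNCaP95 (-0.56).

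**Figure D4:**
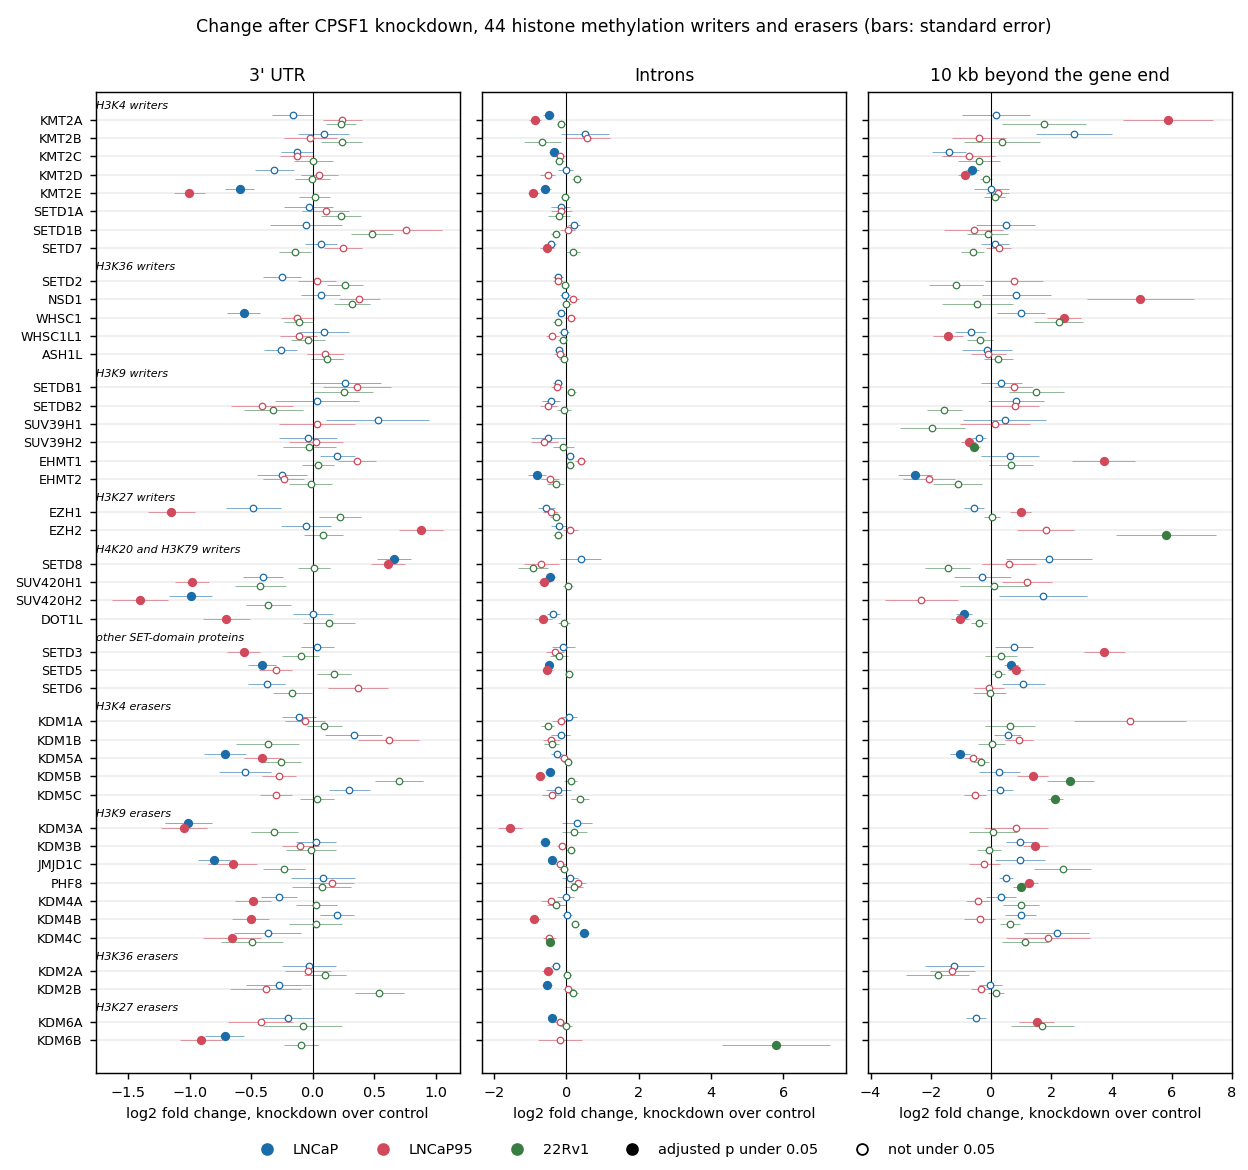
Log2 fold change after CPSF1 knockdown of each of the 44 genes, ordered by role, in the 3′ UTR, intron and 10 kb tables, with 1 point per line (colour) and bars for the SE from edgeR. Filled points have an adjusted p under 0.05. Filled points lie mostly left of 0 in the 3′ UTR and intron panels and mostly right of 0 in the 10 kb panel for LNCaP95.

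In the introns the calls of LNCaP and LNCaP95 were mostly lower. In LNCaP 1 of 40 was higher and 11 were lower (8.7% and 5.62% of all genes, 14.3% in either direction), in LNCaP95 0 of 41 were higher and 10 lower (13% and 10.8%, 23.8%), and in 22Rv1 1 of 41 was higher and 1 lower (2.62% and 1.75%, 4.37%). The median log2 fold change was -0.22 in LNCaP and -0.39 in LNCaP95, beside 0.016 and 0.0019 over all genes, and 31 of 40 and 33 of 41 members were below 0. In 22Rv1 the median was -0.069. With the library total over the 4 tables as the scale, the median of all genes moved to -0.27 in LNCaP and 0.18 in 22Rv1, and the members' calls to 0 higher and 19 lower in LNCaP and 1 and 0 in 22Rv1. The LNCaP count rested on single controls, as 6, 3 and 4 members were called without CTRL sh replicates 1, 2 and 3.

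KMT2E had 125, 118 and 140.0 CPM in the CTRL sh libraries, 98.0, 63.4 and 95.5 CPM with CPSF1 sh1 and 81.0, 82.3 and 72.8 CPM with CPSF1 sh2 in the introns in LNCaP. In LNCaP95 it had 225, 181 and 218 CPM in the CTRL sh libraries, 110.1, 133 and 120.2 CPM with CPSF1 sh1 and 105, 98.3 and 92.2 CPM with CPSF1 sh2. Controls and knockdown were separate in both lines (log2 fold change -0.58 ± 0.14 (SE), adjusted p = 0.00473 in LNCaP and -0.91 ± 0.15 (SE), adjusted p = 3.31e-05 in LNCaP95, edgeR). The LNCaP call was lost without CTRL sh replicate 3 (adjusted p = 0.0555). In 22Rv1 the intron values of KMT2E overlapped, at 125 to 167 CPM in controls and 128 to 169.1 CPM after knockdown (-0.028 ± 0.13 (SE), adjusted p = 0.940).

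KMT2A (MLL1), the founding H3K4 methyltransferase of the MLL family, had 178, 121 and 132 CPM in the CTRL sh libraries, 79.9, 56.6 and 99.3 CPM with CPSF1 sh1 and 96.0, 70.6 and 70.6 CPM with CPSF1 sh2 in LNCaP95, with every knockdown library below every control (log2 fold change -0.86 ± 0.17 (SE), adjusted p = 0.000417). In LNCaP it had 124, 103 and 110.3 CPM in the CTRL sh libraries, 72.6, 63.4 and 71.7 CPM with CPSF1 sh1 and 60.1, 112 and 89.6 CPM with CPSF1 sh2. The second CPSF1 sh2 library reached into the controls there, and the LNCaP call (log2 fold change -0.49 ± 0.16 (SE), adjusted p = 0.0336) was lost in 7 of the 9 fits that left out a library (adjusted p = 0.157 without CTRL sh replicate 1). 22Rv1 had 106 to 152 CPM in controls and 105 to 125 CPM after knockdown (-0.14 ± 0.13 (SE), adjusted p = 0.628). The intron to 3′ UTR ratio of KMT2A fell in LNCaP95 (log2 difference -1.09 ± 0.26 (SE), adjusted p = 0.00730, lost without CTRL sh replicate 1).

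KDM5B had 154, 180.4 and 182 CPM in the CTRL sh libraries, 131, 125 and 121 CPM with CPSF1 sh1 and 121, 92.4 and 129 CPM with CPSF1 sh2 in the introns of LNCaP. LNCaP95 had 262, 281 and 234 CPM in the CTRL sh libraries, 176, 154 and 170.3 CPM with CPSF1 sh1 and 136, 152 and 147 CPM with CPSF1 sh2. The groups did not overlap in either line (log2 fold change -0.46 ± 0.13 (SE), adjusted p = 0.0129 in LNCaP and -0.72 ± 0.14 (SE), adjusted p = 0.000386 in LNCaP95, edgeR). Without CTRL sh replicate 2 or 3 the LNCaP call was lost (adjusted p = 0.076 and 0.0867). In 22Rv1 the 3 controls had 46.3, 109 and 95.5 CPM, the first of them below every knockdown library, and the knockdown libraries 70.4 to 109.9 CPM (0.12 ± 0.18 (SE), adjusted p = 0.804).

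SUV420H1 had 93.2, 104 and 80.1 CPM in the CTRL sh libraries, 61.0, 69.7 and 62.1 CPM with CPSF1 sh1 and 51.9, 75.5 and 72.8 CPM with CPSF1 sh2 in LNCaP introns and 89.9, 84.2 and 95.4 CPM in the CTRL sh libraries, 69.9, 47.4 and 70.5 CPM with CPSF1 sh1 and 51.0, 58.7 and 50.8 CPM with CPSF1 sh2 in LNCaP95. All knockdown libraries lay below the controls in both lines (log2 fold change -0.46 ± 0.15 (SE), adjusted p = 0.0329 in LNCaP and -0.62 ± 0.16 (SE), adjusted p = 0.00595 in LNCaP95, edgeR). The LNCaP call was lost in 5 of the 9 fits without a library (adjusted p = 0.215 without CTRL sh replicate 2). In 22Rv1 the controls spanned 60.7 to 104 CPM and the knockdown libraries 76.3 to 100.05 CPM (0.041 ± 0.14 (SE), adjusted p = 0.923).

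KDM4C, with nearly all of its reads in introns, was called higher in LNCaP and lower in 22Rv1. Both calls and the line differences below use the library sizes of the intron table. Scaled by the library total over all tables, KDM4C had neither call. It had 899, 823 and 865 CPM in the CTRL sh libraries, 1037, 1183 and 1397 CPM with CPSF1 sh1 and 992, 1093 and 1303 CPM with CPSF1 sh2 in LNCaP, all above the controls (log2 fold change 0.49 ± 0.13 (SE), adjusted p = 0.0110). In 22Rv1 it had 1117, 1141 and 1437 CPM in the CTRL sh libraries, 901, 925 and 893 CPM with CPSF1 sh1 and 944, 871 and 926 CPM with CPSF1 sh2, all below the controls (log2 fold change -0.45 ± 0.11 (SE), adjusted p = 0.0225). In LNCaP95 controls had 1879, 1729 and 1993 CPM and the knockdown libraries 1075 to 1699.9 CPM, again without overlap, but the test was not passed (-0.47 ± 0.18 (SE), adjusted p = 0.0549). The differences in change were -0.91 ± 0.20 (SE), adjusted p = 0.00192 for LNCaP95 over LNCaP and -0.88 ± 0.20 (SE), adjusted p = 0.00704 for 22Rv1 over LNCaP (edgeR), in a test added after the intron values were seen. Both calls rested on single libraries, as that in LNCaP was lost without CTRL sh replicate 2 or 3 (adjusted p = 0.0693 and 0.0605) and that in 22Rv1 without CTRL sh replicate 3 (0.221), CPSF1 sh2 replicate 2 or CPSF1 sh2 replicate 3 (0.0606 and 0.0551).

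With KMT2E counted, the genes grouped as H3K4 writers gave 3 of 8 intron calls in LNCaP and 3 of 8 in LNCaP95, all lower (5.62% and 10.8% of all genes). These included KMT2C (-0.35, lost in 5 of 9 fits), an enhancer H3K4 methyltransferase, in LNCaP and SETD7 (-0.52), an H3K4 monomethyltransferase, in LNCaP95. SETD7 was lost in 6 of 9 fits, with a change of -0.28 at adjusted p = 0.402 without CTRL sh replicate 3. Among H3K9 erasers KDM3B (-0.58, lost in 1 of 9 fits) and JMJD1C (-0.39, lost in 5 of 9 fits) fell in LNCaP, and KDM3A (-1.56) and KDM4B (-0.88) in LNCaP95. EHMT2 (-0.81 in LNCaP) was the only H3K9 writer called, and was not called when any 1 of the 3 controls was left out. KDM2B (-0.53) fell in LNCaP, lost without CTRL sh replicate 1 (adjusted p = 0.109), and KDM2A, the other H3K36 eraser, in LNCaP95 (-0.52, lost in 1 of 9 fits). KDM6B had 0 intron reads in the 3 controls of 22Rv1 and 4 to 16 reads in the knockdown libraries, at least 3.95-fold higher than a floor of 3 reads over the controls, and this call was lost without CTRL sh replicate 2 or 3 (adjusted p = 0.0739 and 0.131). None of the 5 H3K36 writers was called in introns of any line.

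Relative to the 3′ UTR of the same gene, intron use fell in 5 of 41 members in LNCaP95 (8.95% of all genes lower, 14.1% in either direction), namely SETD8 (-1.30, lost in 2 of 9 fits), KMT2A, KDM1B (-1.03, lost in 8 of 9 fits), a second flavin-dependent H3K4 demethylase, EZH2 (-0.79, lost in 7 of 9 fits) and SETD7 (-0.76 on the log2 scale, lost in 5 of 9 fits). None of 40 was called in LNCaP (5 at an unadjusted p under 0.05, beside 2.39% higher and 1.29% lower of all genes, 3.69% together) and none of 41 in 22Rv1 (7 at an unadjusted p under 0.05, beside 0.357% and 0.0649%, 0.422% together). The LNCaP95 count fell to between 1 and 4 without any 1 library.

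In the 10 kb regions the calls after knockdown went mostly upward in LNCaP95. There 11 of 42 members were higher and 4 lower (17.6% and 10.1% of all genes, 27.7% in either direction), with 1 of 38 higher and 4 lower in LNCaP (9.52% and 5.2%, 14.7%) and 4 of 41 higher and 1 lower in 22Rv1 (7.26% and 2.73%, 9.99%). Median log2 fold changes were 0.33 (LNCaP), 0.43 (LNCaP95) and 0.096 (22Rv1), beside 0.13, 0.22 and 0.19 over all genes. Because the 10 kb regions as a whole gained reads, scaling by the library total over all 4 tables moved the median of all genes to 0.62, 1.11 and 0.73, and the members' calls to 4 rises and 1 fall for LNCaP, 18 rises for LNCaP95 and 9 rises for 22Rv1. Median-of-ratios size factors gave 0 and 4 in LNCaP, and DESeq2 3 and 2 in 22Rv1. The LNCaP95 count of 15 fell to 9 without CTRL sh replicate 1, the LNCaP count of 5 to 2 without CTRL sh replicate 2, and the 22Rv1 count of 5 to 3 and 2 without CTRL sh replicates 2 and 3. Read numbers were low, with 15, 16 and 13 members under 50 reads over the 9 libraries of LNCaP, LNCaP95 and 22Rv1.

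The last 30 bases before the 10 kb region's gene end are printed for the 4 members with the largest shared change there and for KDM5C, because this is where the annotated transcript ends and the downstream count begins 300 bases later. They are given 5′ to 3′ on the gene's strand from GRCh37, with a polyadenylation signal (AATAAA or ATTAAA) in capitals where 1 was found. DOT1L ends at chr19:2232548-2232577 (+), KDM5B at chr1:202696526-202696555 (−), PHF8 at chrX:53963109-53963138 (−), SETD5 at chr3:9520895-9520924 (+) and KDM5C at chrX:53220503-53220532 (−).
DOT1L: gctgtAATAAAcagactgttttcactcgga
KDM5B: ataATTAAAtctctttaagaatgacttcta
PHF8: gagataaaagtgatttatcttggcaattgc
SETD5: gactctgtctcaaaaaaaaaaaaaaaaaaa
KDM5C: tttacataaatggaatcgtataatatgtga
DOT1L thus ends with AATAAA and KDM5B with ATTAAA, neither hexamer lies in the windows of PHF8, SETD5 and KDM5C, and that of SETD5 ends in a run of A. Over the 44 genes, 20 windows (45.5%) held AATAAA on the gene strand, 11 (25%) ATTAAA alone and 13 (29.5%) neither, beside 50.2%, 12.2% and 37.6% of 19540 genes. These letters describe the annotated ends, since the positions of single read ends are not part of the count tables.

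PHF8 had 64.4, 116 and 86.5 CPM in the CTRL sh libraries, 249, 164 and 235 CPM with CPSF1 sh1 and 209.6, 219 and 247 CPM with CPSF1 sh2 in its 10 kb region (chrX:53952810-53962809) in LNCaP95. In 22Rv1 it had 83.6, 70.8 and 74.2 CPM in the CTRL sh libraries, 139.8, 176 and 158 CPM with CPSF1 sh1 and 137, 174 and 153 CPM with CPSF1 sh2. Every knockdown library exceeded every control in both lines (log2 fold change 1.26 ± 0.29 (SE), adjusted p = 0.000449 in LNCaP95 and 0.98 ± 0.27 (SE), adjusted p = 0.00695 in 22Rv1, edgeR), and the 22Rv1 call was lost without CTRL sh replicate 3 (adjusted p = 0.057). In LNCaP the controls had 178 to 269 CPM and the knockdown libraries 252 to 409 CPM, which overlap (0.50 ± 0.23 (SE), adjusted p = 0.130). As a share of all PHF8 reads, the region held 11.2, 19.4 and 16.5% in the CTRL sh libraries, 42.9, 37.4 and 43.2% with CPSF1 sh1 and 48.0, 43.0 and 46.8% with CPSF1 sh2 in LNCaP95. Its ratio to the 3′ UTR rose there by 1.10 ± 0.36 (SE), adjusted p = 0.0206 (lost without CTRL sh replicate 1) on the log2 scale. No other gene of the same strand lies in this region.

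SETD5 had 183, 128 and 181 CPM in the CTRL sh libraries, 222, 213 and 205 CPM with CPSF1 sh1 and 332, 262 and 336 CPM with CPSF1 sh2 in its 10 kb region (chr3:9521224-9531223) in LNCaP. LNCaP95 had 199, 263 and 201 CPM in the CTRL sh libraries, 345, 599.9 and 365 CPM with CPSF1 sh1 and 516, 358 and 285 CPM with CPSF1 sh2. All knockdown libraries were above the controls in both lines (log2 fold change 0.66 ± 0.24 (SE), adjusted p = 0.0463 in LNCaP and 0.84 ± 0.26 (SE), adjusted p = 0.0106 in LNCaP95, edgeR). The LNCaP call was lost in 5 of the 9 fits without a library (adjusted p between 0.0695 and 0.271) and the LNCaP95 call without CTRL sh replicate 1 or 3 (0.0548 and 0.0538). Relative to its own 3′ UTR, SETD5 rose by 1.06 ± 0.31 (SE), adjusted p = 0.0215 in LNCaP (lost in 4 of 9 fits) and 1.11 ± 0.30 (SE), adjusted p = 0.00500 in LNCaP95. In 22Rv1 the region ran from 172 to 205 CPM in controls and from 181 to 271 CPM after knockdown (0.23 ± 0.22 (SE), adjusted p = 0.586).

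KDM5B had few downstream reads. Its 10 kb region (chr1:202686227-202696226) had 9.20, 22.5 and 18.5 CPM in the CTRL sh libraries, 34.9, 46.3 and 36.3 CPM with CPSF1 sh1 and 49.4, 74.2 and 28.5 CPM with CPSF1 sh2 in LNCaP95, with no overlap (log2 fold change 1.38 ± 0.50 (SE), adjusted p = 0.0297), but this call was lost without CTRL sh replicate 1, CTRL sh replicate 3 or CPSF1 sh2 replicate 2 (adjusted p = 0.141, 0.0506 and 0.107). In 22Rv1 it had 0, 0 and 8.24 CPM in the CTRL sh libraries, 6.58, 19.1 and 17.3 CPM with CPSF1 sh1 and 36.2, 38.5 and 27.8 CPM with CPSF1 sh2. The 22Rv1 controls held 3 reads in all, 6.77-fold below the knockdown libraries with a counting interval of 2.25 to 33.4 (95%, counting error only), and 1 CPSF1 sh1 library lay below the highest control. This call (adjusted p = 0.0150) was lost without CTRL sh replicate 1 or 2 (0.0629 and 0.112). In LNCaP the controls had 12.8 to 17.8 CPM and the knockdown libraries 0 to 36.7 CPM (0.27 ± 0.67 (SE), adjusted p = 0.847). Newer models of KDM5B reach into this region.

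DOT1L went the other way. Its 10 kb region (chr19:2232877-2242876) had 206, 138 and 171 CPM in the CTRL sh libraries, 105, 75.7 and 119 CPM with CPSF1 sh1 and 79.3, 73.7 and 94.9 CPM with CPSF1 sh2 in LNCaP, all below the controls (log2 fold change -0.91 ± 0.27 (SE), adjusted p = 0.00960, lost without CTRL sh replicate 1 at adjusted p = 0.112). In LNCaP95 it had 168.7, 97.7 and 173 CPM in the CTRL sh libraries, 67.8, 44.4 and 87.8 CPM with CPSF1 sh1 and 69.2, 100.04 and 75.9 CPM with CPSF1 sh2. The second CPSF1 sh2 library lay just above the lowest control and the other 5 below it (log2 fold change -1.05 ± 0.30 (SE), adjusted p = 0.00440). In 22Rv1 the controls had 98.9 to 146 CPM and the knockdown libraries 75.9 to 104 CPM (-0.40 ± 0.26 (SE), adjusted p = 0.359). The ratio of this region to the 3′ UTR was not called in any line, with log2 differences of -0.91 ± 0.37 (SE), adjusted p = 0.108, -0.32 ± 0.37 (SE), adjusted p = 0.549 and -0.53 ± 0.32 (SE), adjusted p = 0.329 in LNCaP, LNCaP95 and 22Rv1. SF3A2 lies in this region on the same strand.

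KDM5C, an X-linked H3K4 demethylase, had the smallest adjusted p of the members in this table and is shown by library for that reason, a choice made after its values were seen. In 22Rv1 its 10 kb region (chrX:53210204-53220203) had 94.0, 55.1 and 76.9 CPM in the CTRL sh libraries, 308, 262 and 329 CPM with CPSF1 sh1 and 426, 373 and 333 CPM with CPSF1 sh2. These are 14 to 28 reads per control and 110 to 365 reads per knockdown library, with every knockdown library above every control (log2 fold change 2.13 ± 0.25 (SE), adjusted p = 1.41e-11). The share of KDM5C reads in the region was 14.8, 7.22 and 9.96% in the CTRL sh libraries, 40.4, 33.6 and 42.1% with CPSF1 sh1 and 45.9, 41.3 and 43.6% with CPSF1 sh2. Its 3′ UTR stayed at 45.9 to 48.2 CPM in controls and 42.7 to 55.4 CPM after knockdown (0.035 ± 0.14 (SE), adjusted p = 0.939), and the ratio rose by 2.10 ± 0.31 (SE), adjusted p = 3.69e-05. In LNCaP and LNCaP95 the groups overlapped (0.29 ± 0.42 (SE), adjusted p = 0.727 and -0.53 ± 0.36 (SE), adjusted p = 0.292). The change in 22Rv1 exceeded that in LNCaP by 1.89 ± 0.47 (SE), adjusted p = 0.0191 (lost without CTRL sh replicate 1 of LNCaP or CTRL sh replicate 2 or 3 of 22Rv1) and that in LNCaP95 by 2.65 ± 0.43 (SE), adjusted p = 6.86e-06 on the log2 scale. Newer models of KDM5C also reach into this region.

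**Figure D5:**
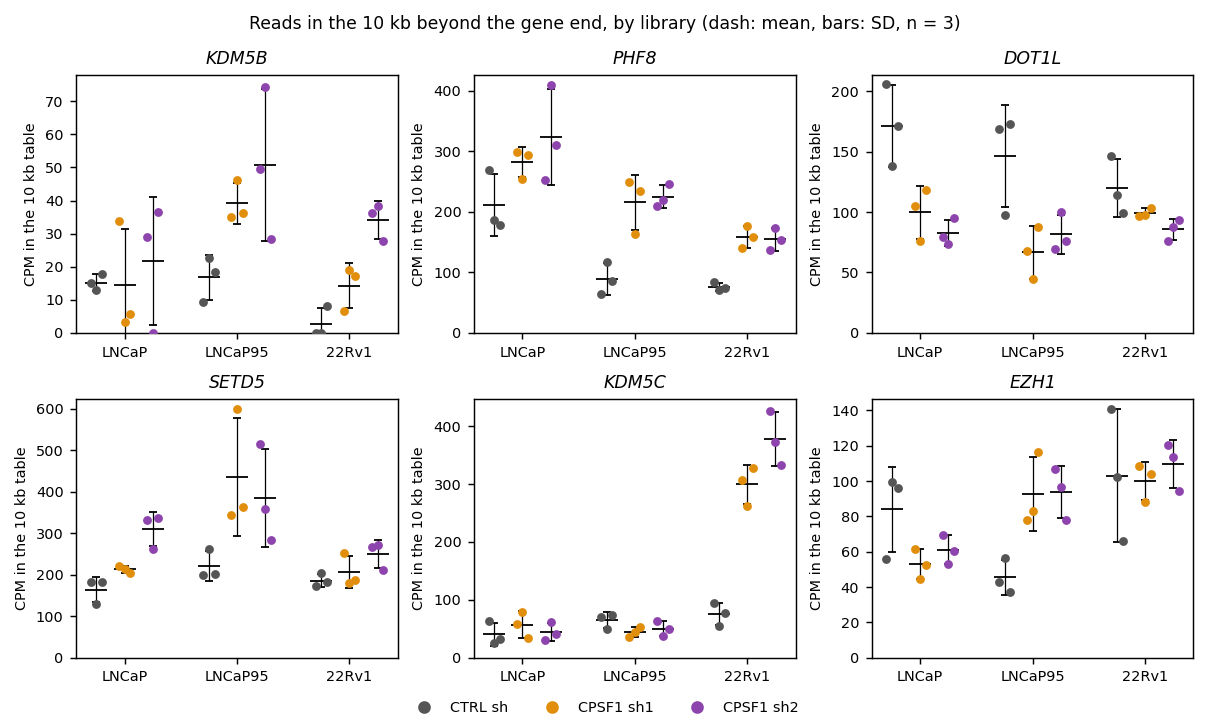
Level in the 10 kb region (CPM of the 10 kb table, linear axis from 0) of KDM5B, PHF8, DOT1L, SETD5, KDM5C and EZH1 in each library, grouped by line and shRNA, with a dash for the mean and bars for the SD (n = 3). KDM5C stands apart in 22Rv1 knockdown, PHF8 in LNCaP95 and 22Rv1 knockdown and EZH1 in LNCaP95 knockdown, while DOT1L lies below its controls in LNCaP.

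Further 10 kb calls in LNCaP95 were carried by several role groups. EZH1 rose from 42.9, 56.4 and 37.1 CPM in controls to 77.8 to 116 CPM, with no overlap (log2 fold change 0.98 ± 0.35 (SE), adjusted p = 0.0273, lost without CTRL sh replicate 1 or 3 at adjusted p = 0.0708 and 0.103). Its share of EZH1 reads went from 2.30 to 3.87% to 12.8 to 22.6%, while its 3′ UTR fell, and a long non-coding RNA lies in the same region. SETD3 had 0 to 2 reads per control and 22 to 36 per knockdown library, 15.2-fold higher with a counting interval of 5.09 to 74.3 on 3 control reads (adjusted p = 6.37e-06). WHSC1 had 1 to 6 reads per control and 11 to 51 per knockdown library (log2 fold change 2.43 ± 0.57 (SE), adjusted p = 0.000538). KMT2A had 0 reads in the controls and 4 to 13 per knockdown library, at least 4.89-fold higher than the floor of 3 reads (adjusted p = 0.00140). KDM3B (1.47, lost in 1 of 9 fits), an H3K9 demethylase, and KDM6A (1.51, lost in 7 of 9 fits) also rose. EHMT1, partner of EHMT2, rose on 1 control read, and NSD1, an H3K36 methyltransferase, on 0 (lost in 5 of 9 fits). Other genes of the same strand lie in the regions of KMT2A (TTC36 and TMEM25), KDM3B (REEP2), EHMT1 (CACNA1B) and NSD1 (PRELID1). KMT2D was lower in LNCaP95 (-0.87) and so was SUV39H2 (-0.74), but with the library total over the 4 tables as the scale both turned to above 0 (0.076 and 0.17), and SUV39H2 was not called without CTRL sh replicate 1 (-0.46, adjusted p = 0.246). WHSC1L1 (NSD3), an H3K36 methyltransferase, was lower as well (-1.45), with 92.0, 33.8 and 21.6 CPM in the controls and a change of -0.58 at adjusted p = 0.553 without CTRL sh replicate 1.

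In LNCaP the downstream falls were those of EHMT2 (-2.53), with 12 to 18 reads per control and 1 to 7 per knockdown library, KDM5A (-1.04), DOT1L and KMT2D (-0.62, log2). KDM5A went to -0.60 at adjusted p = 0.397 without CTRL sh replicate 3 and was also lost without CTRL sh replicate 2 (0.0923), and KMT2D was lost in 5 of 9 fits (adjusted p up to 0.19). In 22Rv1, EZH2 had 0 downstream reads in the controls and 4 to 12 per knockdown library, at least 3.45-fold higher than the floor, a call lost without CTRL sh replicate 3 (adjusted p = 0.0829), and SUV39H2 fell (-0.56, lost in 7 of 9 fits at adjusted p between 0.0527 and 0.148). The 10 kb region held another gene of the same strand in 19 of the 44 members, among them PRKAG1 for KMT2D and SLC44A4 for EHMT2, and reads of such genes cannot be told apart here.

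Set against the 3′ UTR of the same gene, downstream use rose in 13 of 42 members in LNCaP95 and fell in 1 (21.2% and 6.82% of all genes, 28% in either direction). In LNCaP 1 of 38 rose and 1 fell (8.39% and 1.95%, 10.3%, or 4 and 1 members when scaled by the library total over the 4 tables), and in 22Rv1 3 of 40 rose and 0 fell (6.65% and 0.803%, 7.45%). The rises in LNCaP95 included SUV420H1 (2.20, lost in 1 of 9 fits), EZH1 (2.14), KDM5B (1.63, lost in 1 of 9 fits) and KMT2E (1.24 on the log2 scale, lost in 2 of 9 fits), and SETD3 on its 3 control reads. KDM1A was among them as well (adjusted p = 0.0431, edgeR), on 0 reads in the controls and 0 to 8 per knockdown library. KMT2D was the only one to fall (-0.93, lost in 1 of 9 fits), and it turned to above 0 (0.096) when scaled by the library total over the 4 tables.

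The change of KDM5B after knockdown was above 0 in 22Rv1 and below 0 in LNCaP and LNCaP95 in the 3′ UTR and in coding exons. Its 3′ UTR had 14.9, 12.1 and 16.0 CPM in the CTRL sh libraries, 19.3, 21.0 and 24.7 CPM with CPSF1 sh1 and 21.5, 29.8 and 24.4 CPM with CPSF1 sh2 in 22Rv1, where all 6 knockdown libraries exceeded the controls but the gene was not called (0.71 ± 0.20 (SE), adjusted p = 0.0860). In coding exons the 22Rv1 controls had 132, 152 and 107 CPM and the knockdown libraries 201 to 317 CPM (log2 fold change 0.91 ± 0.17 (SE), adjusted p = 0.00762, lost without CTRL sh replicate 3 at adjusted p = 0.0956). LNCaP coding-exon counts went from 354 to 448 down to 222 to 309 CPM (log2 fold change -0.68 ± 0.14 (SE), adjusted p = 0.00219). The line-by-knockdown difference between 22Rv1 and LNCaP was 1.28 ± 0.28 (SE), adjusted p = 0.00475 in the 3′ UTR and 1.59 ± 0.23 (SE), adjusted p = 3.86e-05 in coding exons (edgeR), the latter test being added after its values were seen.

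Coding-exon calls were few otherwise. In LNCaP 1 of 36 members was higher and 6 were lower (3.8% and 3.31% of all genes, 7.1% in either direction, or 0 and 7 members with the library total over the 4 tables as the scale), in LNCaP95 1 of 33 was higher and 4 lower (7.51% and 4.99%, 12.5%) and in 22Rv1 1 of 34 was higher and 0 lower (0.567% and 0.445%, 1.01%). KDM3A fell here in LNCaP (-1.30) and LNCaP95 (-1.02, lost in 1 of 9 fits), as did JMJD1C (-0.67 and -0.85) and KMT2E (-0.46 and -0.73, log2), whose LNCaP call was lost in 2 of 9 fits. WHSC1 (-0.88, lost in 1 of 9 fits) and KDM5A (-0.43, lost in 5 of 9 fits) fell in LNCaP, where SETD8 rose (0.46, lost in 7 of 9 fits and not called under the library-total scale).

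A second list of 42 genes, of which 40 were listed under a symbol that could be matched, held partners of these enzymes and further writers and erasers such as SUZ12, WDR5, PRMT5 and PHF2, and was counted in the same fits. LNCaP had 3 rises and 3 falls among 39 tested 3′ UTRs (8.24% and 10.1% of all genes), LNCaP95 had 5 rises and 8 falls among 39 (15.2% and 15.2%), and 22Rv1 had 0 calls among 40 (1.47%). For introns, LNCaP gave 2 rises and 6 falls among 33 (8.7% and 5.62%), LNCaP95 gave 2 rises and 2 falls among 35 (13% and 10.8%), and 22Rv1 gave 1 rise among 34 (2.62%). The 10 kb regions gave 6 rises and 2 falls among 34 in LNCaP (9.52% and 5.2%), 12 rises and 4 falls among 36 in LNCaP95 (17.6% and 10.1%) and 8 rises and no fall among 35 in 22Rv1 (7.26% and 2.73%).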

How the data were processed

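The members and every list used here were chosen with earlier results of these data known. The authors deposited raw counts of reads per gene in 4 tables, 1 per region, not normalized and with a column per library. The poly(A) stretch had been trimmed, reads had been mapped to hg19 with HISAT2 2.1.0, and the position of the last base had been counted per gene and strand with featureCounts of Subread 2.0.3, in regions built from protein-coding genes of Ensembl GRCh37. A read counts wherever it ends, so priming at A-rich sequence within a transcript can enter the counts of all 4 regions. Whether such reads were removed from these tables is not stated in the sources used here. The tables held 19540 (3′ UTR), 20216 (intron), 20266 (10 kb) and 20268 (CDS) genes.

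Here edgeR 4.0.16 (with limma 3.58.1 in R 4.3.3) was run on these counts, using its quasi-likelihood test of 3 control against 6 knockdown libraries per line, a grouping taken from the study. Library sizes and TMM factors were those of the table tested. Genes had to average over 2 CPM, and Benjamini-Hochberg adjustment ran over all genes that did, with calls under 0.05. Ratios to the 3′ UTR were tested as region-by-knockdown or region-by-line terms with library and region in the model, control lines as contrasts of 9 libraries, and differences between lines as line-by-knockdown terms over 27 libraries, those for introns and coding exons being added after the data were seen. Comparisons within a line use the same 3 controls. Depth ran from 3452413 to 12425417 reads per library, and with 3 controls a member with few reads has a wide error. Where controls held 0 reads, folds after knockdown are bounds against 3 reads over the group, and with 1 to 3 reads they carry exact 95% counting intervals, both covering counting error only.

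Values by library are given for the 4 members per table with the largest mean change called in at least 2 lines in 1 direction, the 4 with the widest range of control line means (log2 of CPM plus 1), the 4 with the highest intron share, EZH2 and KDM1A. Other members are named by role with the largest changes of the group. Alternatives were each shRNA alone, DESeq2 1.42.0, median-of-ratios size factors, no filter, a replicate block, scaling by the summed library size of the 4 tables, and leaving out each library. The scripts were tested on simulated counts with known changes. Replicate numbers come from the sample titles, no column lacked a sample (0), and no libraries were identical (0). Older symbols and newer gene models came from RefSeq, and sequences from GRCh37.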

Additional observations from a re-analysis of the deposited data

Results flagged for a closer look

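The results below were singled out because a member's change after CPSF1 knockdown differed between a pair of lines in edgeR's test of the line-by-knockdown term over the 27 libraries (adjusted p under 0.05). Each value is the log2 fold change in the first line named minus that in the other. In the 27 fits that each left out 1 library, 3 of the 14 differences in the 3′ UTR, 1 of 4 in the 10 kb regions, 5 of 17 in introns and 3 of 6 in coding exons were never lost. Lost most often were KDM5C (17 fits), SETD5 (16) and DOT1L (14) in the 3′ UTR and KDM6B (13) and KDM2A (10) in introns. For most other differences the number of lost fits is not given below. No cause of these differences was tested, and groups of 3 libraries were too small for a test of single outlying libraries.

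In the 3′ UTR, 3 of 44 members differed between LNCaP95 and LNCaP, 4 between 22Rv1 and LNCaP and 7 between 22Rv1 and LNCaP95, beside 9.58%, 5.11% and 10.7% of all genes tested. EZH2 changed more upward in LNCaP95 than in LNCaP (0.949, adjusted p = 0.0282), whereas SETD3 (-0.589, adjusted p = 0.0368) and KDM5C (-0.587, adjusted p = 0.0486) changed more downward. 22Rv1 against LNCaP gave values above 0 for KDM5B (1.28, adjusted p = 0.00475), KMT2E (0.633, adjusted p = 0.0154) and SETD5 (0.604, adjusted p = 0.0398), and below 0 for SETD8 (-0.634, adjusted p = 0.0339). Against LNCaP95, the change in 22Rv1 was higher for EZH1 (1.38, adjusted p = 0.00174), SUV420H2 (1.05, adjusted p = 0.0302), KMT2E (1.03, adjusted p = 4.94e-05), KDM5B (0.993, adjusted p = 0.0144), DOT1L (0.844, adjusted p = 0.0437) and KDM6B (0.828, adjusted p = 0.0243). SETD8, which rose in LNCaP and LNCaP95, again had the lower change in 22Rv1 (-0.590, adjusted p = 0.0314).

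In the 10 kb regions 1, 1 and 2 of 42 members differed, in the same order of line pairs, beside 2.48%, 1% and 4.15% of all genes. The change of EZH1 was higher in LNCaP95 (0.984) than in LNCaP (-0.571), with a difference of 1.60 (adjusted p = 0.0317). This difference was lost without CTRL sh replicate 2 or 3 of LNCaP or CTRL sh replicate 1 or 3 of LNCaP95. KDM5C had a change of 2.13 in 22Rv1, 0.293 in LNCaP and -0.527 in LNCaP95. Its change in 22Rv1 was higher than that in LNCaP (1.89, adjusted p = 0.0191) and that in LNCaP95 (2.65, adjusted p = 6.86e-06). The difference from LNCaP was lost without CTRL sh replicate 1 of LNCaP or CTRL sh replicate 2 or 3 of 22Rv1. The change of SETD3 was lower in 22Rv1 than in LNCaP95 (-3.42, adjusted p = 0.0151, lost in 2 of 27 fits without a library), where its controls held 3 reads in all and its own rise was 15.2-fold with a counting interval of 5.09 to 74.3.

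For introns and coding exons the test was added after the data were seen. In introns 4, 3 and 10 of 41 members differed, beside 8.1%, 3.77% and 9.1% of all genes. LNCaP95 against LNCaP gave KDM2B above 0 (0.626, adjusted p = 0.0310) and KDM3A (-1.82, adjusted p = 0.0128), KDM4C (-0.913, adjusted p = 0.00192) and KDM4B (-0.853, adjusted p = 0.00156) below 0. 22Rv1 differed from LNCaP in KDM2B (0.776, adjusted p = 0.0120), KDM3B (0.755, adjusted p = 0.0120) and KDM4C (-0.875, adjusted p = 0.00704). With 22Rv1 set against LNCaP95, where many of these genes fell, all 10 values were above 0, namely those of KDM6B (5.74, adjusted p = 0.0467, a fitted value with 0 control reads in 22Rv1 that is no bound, beside a rise there of at least 3.95-fold), KDM3A (1.81, adjusted p = 0.0112), KDM4B (1.14, adjusted p = 4.15e-05), KMT2E (0.900, adjusted p = 0.00166), KDM5B (0.865, adjusted p = 0.00880), KMT2D (0.824, adjusted p = 0.0257), KMT2A (0.728, adjusted p = 0.0339), SUV420H1 (0.674, adjusted p = 0.0378), SETD5 (0.618, adjusted p = 0.0257) and KDM2A (0.547, adjusted p = 0.0417).

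In coding exons 1, 1 and 4 of 35 members differed, beside 3.84%, 0.532% and 4.77% of all genes. The change of EZH2 after knockdown was higher in LNCaP95 than in LNCaP (0.965, adjusted p = 0.0231) and lower in 22Rv1 than in LNCaP95 (-0.894, adjusted p = 0.02996). The difference between LNCaP95 and LNCaP was lost in at least 1 fit, that without CPSF1 sh1 replicate 1 of LNCaP. The change of KDM5B was higher in 22Rv1 than in LNCaP (1.59, adjusted p = 3.86e-05) and than in LNCaP95 (1.21, adjusted p = 0.000727). The changes of EZH1 (1.68, adjusted p = 0.00498) and KMT2E (0.730, adjusted p = 0.0171) were higher in 22Rv1 than in LNCaP95.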

How the results depend on the processing

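With 3 controls per line and few reads per member outside the 3′ UTR, counts of calls are the least stable values here. Over settings that keep all libraries, 133 of 162 counts stayed within 1.5 times the reported count and 29 did not. Scaling by the summed library size of the 4 tables gave 9 calls in the 10 kb regions of 22Rv1, 19 in introns of LNCaP, 1 in introns of 22Rv1 and 0 in coding exons of 22Rv1, with 5 and 8 changed 10 kb ratios in LNCaP and 22Rv1, 2, 2 and 1 changed intron ratios in LNCaP, LNCaP95 and 22Rv1, and 6 (3′ UTR) and 3 (10 kb) members whose change differed between LNCaP95 and LNCaP. It also moved the log2 change of KMT2D to 0.0763 and of SUV39H2 to 0.171 in the 10 kb region of LNCaP95, and the 10 kb ratio of KMT2D there to 0.0963, and the reason is that this scaling keeps the rise shared by all 10 kb regions. CPSF1 sh1 alone gave 2 and 1 calls in the 10 kb regions of 22Rv1 and LNCaP, 0 and 2 in coding exons of 22Rv1 and LNCaP95, and 0 and 5 in introns of 22Rv1 and LNCaP95, while CPSF1 sh2 alone gave 3 in coding exons of LNCaP and 1 and 4 in introns of 22Rv1 and LNCaP. DESeq2 called 1 member in the 3′ UTR and 1 in introns of 22Rv1. Without a filter the 3′ UTR change differed in 2 members between 22Rv1 and LNCaP and in 1 between LNCaP95 and LNCaP, the intron ratio was changed in 1 member in 22Rv1 and 3 in LNCaP95, and 0 members had a different 10 kb ratio between 22Rv1 and LNCaP controls. The cause of these other moves was not tested. The uncalled 3′ UTR changes of EZH2 turned with CPSF1 sh2 alone (-0.133 in 22Rv1, 0.210 in LNCaP), with summed library sizes (-0.0153 in 22Rv1) and without single libraries (from -0.0202 to 0.159 in 22Rv1 and from -0.193 to 0.141 in LNCaP). That of KDM1A in LNCaP95 turned with CPSF1 sh1 alone (0.147) and without CTRL sh replicate 3 (range over left-out libraries -0.172 to 0.0241).

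Same-numbered libraries of a line correlated over 0.1 in 3 of 9 pairs in each line. Libraries of different numbers did so in 5, 8 and 7 of 18 pairs in LNCaP, LNCaP95 and 22Rv1. Among the controls of the 3 lines it was 5 of 9 same-numbered pairs (median correlation 0.14) and 5 of 18 others (median -0.089). So few pairs cannot decide whether replicate numbers pair the samples. With the replicate number as a block, 77 of the 86 calls of single members after knockdown were kept, the count of changed intron ratios in LNCaP95 went from 5 to 3 and that of different 10 kb ratios between 22Rv1 and LNCaP controls from 1 to 0. Every other count stayed within 1.5 times.

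Leaving out each library in turn gave, in LNCaP, LNCaP95 and 22Rv1, 8 to 11, 10 to 16 and 0 to 1 calls in the 3′ UTR, 3 to 12, 8 to 11 and 0 to 2 in introns, 2 to 5, 9 to 16 and 2 to 5 in the 10 kb regions, and 3 to 7, 4 to 6 and 0 to 1 in coding exons. Changed ratios ran from 0 to 1, 1 to 4 and 0 to 1 for introns and from 0 to 2, 9 to 15 and 1 to 4 for the 10 kb regions. Coding-exon calls in LNCaP fell from 7 to 3 without CTRL sh replicate 3 and in 22Rv1 from 1 to 0 without CTRL sh replicate 3, and intron calls in 22Rv1 from 2 to 0 without CTRL sh replicate 3, CPSF1 sh2 replicate 2 or CPSF1 sh2 replicate 3. For LNCaP95 over LNCaP, 22Rv1 over LNCaP and 22Rv1 over LNCaP95, control differences ran from 11 to 19, 10 to 17 and 18 to 23, intron ratios from 0 to 4, 1 to 2 and 2 to 7, 10 kb ratios from 0 to 1, 0 to 1 and 1 to 3, differences in 3′ UTR change from 1 to 4, 1 to 4 and 3 to 10, in 10 kb change from 0 to 2, 0 to 1 and 1 to 3, in intron change from 3 to 5, 1 to 4 and 4 to 10, and in coding-exon change from 0 to 2, 1 to 1 and 3 to 6.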
